A study of Danio rerio with 6 samples.

Results

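The genes described here are 8 that mark or serve macrophages in zebrafish: the CSF1 receptor genes csf1ra and csf1rb, the scavenger receptor gene marco, mpeg1.1, mfap4, and the complement genes c1qa, c1qb and c1qc. They were chosen by name, out of 32266 gene identifiers counted. Of the 8 names, 6 matched 1 identifier each. The other names were shared: 3 identifiers were labelled MPEG1 and 6 were labelled MFAP4, and the name tables did not tell which was mpeg1.1 or mfap4. All 15 identifiers are therefore followed, the shared names with their identifier. Of these, 13 passed the expression filter and were tested.

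The study sequenced kidney RNA of runx1-/- zebrafish, homozygous for the del25 allele (hg97), and of wild type (WT) siblings. All fish were of the EK strain and about 2.5 months old. Each genotype had 3 pools of 3 kidneys. The series title names RUNX1 and GATA2 as independent drivers of blood development, and the comparison of the null with the wild type kidney addresses what the adult blood-forming tissue holds without runx1.

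Macrophages depend on the receptor tyrosine kinase CSF1R, which binds CSF1 and IL34 and sustains their survival and differentiation. Zebrafish carry duplicate receptor genes, and csf1ra is also used by pigment cells. MARCO is a class A scavenger receptor that binds bacteria and debris, and mpeg1.1 encodes perforin-2, a pore-forming protein of the phagosome whose promoter is widely used to label fish macrophages. The gene mfap4 encodes a fibrinogen-domain protein used as a macrophage marker in zebrafish. The A, B and C chains of C1q assemble into the recognition molecule of the classical complement pathway, and in mammals macrophages are a main source of it. Adult zebrafish make their blood in the kidney marrow, where macrophages share the tissue with blood precursors and renal tubule.

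The libraries held 16147770 to 27480381 expected counts in runx1 null and 23821763 to 30577328 in wild type pools. Levels are given as CPM, counts set to a common scaled library size, and can be compared between libraries for 1 gene but not between genes, since they are not set per length. The runx1 transcript had 0, 5 and 5 counts in runx1 null pools and 8, 5 and 7 in wild type pools, too few to check single labels. Kidney tubule markers, all 8 matched ones of which were tested, summed to 1779 to 3717 CPM in runx1 null and 316 to 2531 CPM in wild type pools, with atp1a1a.4 and cdh17 the highest of them. Wild type pool 1 was the lowest of the 6 in these and the highest in erythroid markers such as hbaa1 and alas2. In a bulk sample fewer cells of a type and less RNA per cell cannot be told apart.

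In edgeR's quasi-likelihood test none of the 13 tested identifiers had an adjusted p-value under 0.05, and 0% of 18864 genes did. Their smallest edgeR adjusted p-value was 0.811. At an unadjusted edgeR p-value under 0.05 there were 0 of 13, against 5.23% of all genes tested, and in the DESeq2 Wald test 0 of 13 passed, against 0.557% of all genes. The 2 genotypes overlapped for all 13, where 12.5% of all genes did not. The fitted direction was lower in runx1 null for 12 of the 13, against 52.1% of all genes. The median log2 fold change of runx1 null over wild type was -0.40 over the 13 and -0.42 over the 6 genes with 1 identifier, beside -0.03 over all genes tested. The members share libraries and cells, so this count is a description and not a test. It also leaned on 1 library: without wild type pool 2, 7 of the 13 were lower, with a median log2 fold change of -0.18. Without runx1 null pool 2, 11 of the 13 were lower, with a median of -0.79. In that fit 4 had an unadjusted edgeR p-value under 0.05, 3 of them lower, beside 991 of 19635 genes, with 0 passing after adjustment. Without wild type pool 1 there were 2, both lower, beside 1437 of 19624 genes. At an unadjusted p-value under 0.05 limma voom with library weights gave 4, all lower, beside 1564 of 18864 genes. The DESeq2 Wald test gave 1, higher, beside 1275 genes. The voom weights were 0.21 for wild type pool 1, 2.11 for wild type pool 2 and 2.04 for runx1 null pool 1. They were 0.98 to 1.14 for the other pools.

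**Figure D1:**
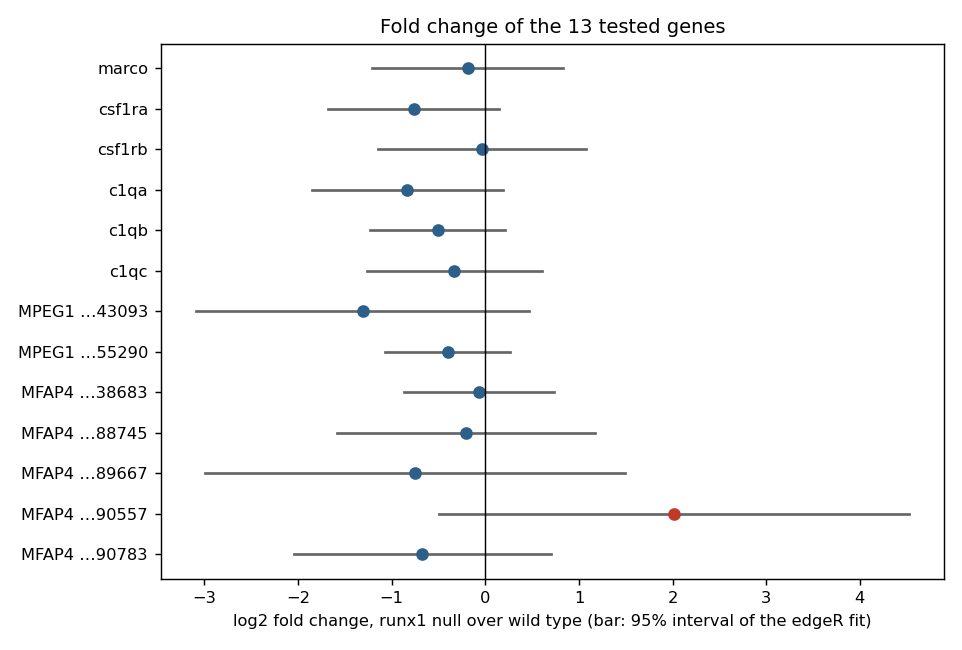
Log2 fold change of runx1 null over wild type for the 13 tested identifiers (points), with the 95% interval of the edgeR fit (bars); identifiers that share a name carry their last digits. All 13 intervals include 0, and the 1 estimate above 0 is that of an MFAP4 identifier.

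Of the CSF1 receptor genes, csf1ra had the lower fitted fold. Its levels were 8.80, 10.5 and 12.7 CPM in the runx1 null pools and 12.6, 28.1 and 13.7 CPM in the wild type pools. Runx1 null pools 1 and 2 were below every wild type pool, runx1 null pool 3 was barely above wild type pool 1, and wild type pool 2 stood far above the rest. csf1ra averaged 10.7 ± 1.97 CPM in runx1 null and 18.1 ± 8.66 CPM in wild type (SD, n = 3 each). Its fitted fold was 0.588, with a 95% interval of 0.312 to 1.11 (log2 fold change -0.77, SE 0.38, edgeR adjusted p 0.811). When wild type pool 2 was left out, csf1ra had a log2 fold change of -0.30.

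The other receptor gene, csf1rb, had 21.0, 11.5 and 14.4 CPM in the runx1 null pools and 7.86, 25.4 and 14.9 CPM in the wild type pools. All runx1 null values fell inside the wild type range. For csf1rb the fitted fold was 0.974 (edgeR adjusted p 0.986). Its 95% interval was wide, 0.451 to 2.101, so these pools leave room for sizeable differences in either direction.

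The ratio of the 2 receptor genes was also compared. The log2 ratio of csf1rb to csf1ra counts was 1.25, 0.14 and 0.18 in the runx1 null pools and -0.68, -0.15 and 0.12 in the wild type pools. All 3 runx1 null ratios exceeded all 3 wild type ratios, though runx1 null pool 2 and wild type pool 3 nearly met. This log2 ratio averaged 0.52 ± 0.63 in runx1 null and -0.23 ± 0.41 in wild type (SD, n = 3 each), a difference of 0.76. The two-sided exact permutation p was 0.1, the smallest that 3 against 3 pools can give, and 0.2 after Benjamini-Hochberg adjustment over the 4 ratios tested. Without runx1 null pool 1 the difference was 0.39.

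Since pigment cells use csf1ra, pigment genes were read beside it. Of 10 matched pigment genes 5 were tested, and none passed in edgeR. Of the 5, 4 were higher in runx1 null, against 47.9% of all genes, with a median log2 fold change of 0.71. The 1 lower gene, pnp4a, had a log2 fold change of -0.78. The 10 matched genes summed to 4.87 to 40.5 CPM in runx1 null and 3.47 to 11.4 CPM in wild type pools. Most of the highest sum was xdh, a xanthine dehydrogenase gene. It had 32.7, 0.406 and 8.05 CPM in the runx1 null pools and 0.241, 5.34 and 5.56 CPM in the wild type pools. Liver markers, given below, followed nearly the same order of pools, and their part in the xdh level was not tested. pmela, a melanosome protein gene, had 1.56, 1.89 and 2.08 CPM in the runx1 null pools and 1.11, 1.38 and 0.882 CPM in the wild type pools (log2 fold change 0.71, edgeR adjusted p 0.811). The pigment enzyme genes dct and tyr stayed at or below 0.334 CPM in every library, with 0 counts of both in wild type pool 1, and slc45a2 had 0 counts in runx1 null pool 1 and wild type pool 1. The tested gene aox5 was at 0.486 CPM or less in every library (log2 fold change 0.75, edgeR adjusted p 0.825). gch2 failed the filter, with 47, 3 and 2 counts in runx1 null pools and 1, 56 and 8 in wild type pools.

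The scavenger receptor gene marco had 47.4, 118 and 61.1 CPM in the runx1 null pools and 57.4, 118 and 82.3 CPM in the wild type pools. Pool 2 was the highest in both genotypes at nearly the same level, and pool 1 was the lowest in both. The labels give no link between pools of 1 number. marco averaged 75.4 ± 37.2 CPM in runx1 null and 85.8 ± 30.3 CPM in wild type (SD, n = 3 each). For marco the fitted fold was 0.878, with a 95% interval of 0.433 to 1.78 (edgeR adjusted p 0.913). The spread within a genotype, 2.48 times from lowest to highest among runx1 null pools, exceeded the difference between the means.

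Of the 2 tested identifiers labelled MPEG1, ENSDARG00000043093 varied more. It had 23.5, 13.2 and 34.4 CPM in the runx1 null pools and 13.1, 114 and 48.8 CPM in the wild type pools. Wild type pools 2 and 3 were above all runx1 null pools, and wild type pool 1 was the lowest of the 6. Its fitted fold was 0.404, with a 95% interval of 0.118 to 1.39 (log2 fold change -1.31, SE 0.75, edgeR adjusted p 0.811). Without wild type pool 2 its log2 fold change was -0.39.

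MPEG1 ENSDARG00000055290 was steadier. It had 17.1, 28.3 and 25.6 CPM in the runx1 null pools and 34.05, 34.1 and 25.7 CPM in the wild type pools. The runx1 null pools were mostly lower, and runx1 null pool 2 lay above wild type pool 3. Its fitted fold was 0.757 with a 95% interval of 0.477 to 1.201 (edgeR adjusted p 0.811). The third identifier labelled MPEG1, ENSDARG00000078569, failed the filter. Its counts were 0, 1 and 3 in runx1 null pools and 47, 0 and 0 in wild type pools, so nearly all of its counts came from wild type pool 1.

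The mfap4 genes form a family, of which the RefSeq list of assembly GRCz12tu names 13, all on 1 chromosome. The deposited estimates for the MFAP4 identifiers were mostly not whole numbers, as arises when reads are shared between similar genes, so the division between these rows is uncertain. The identifier with the highest count in wild type pool 2, ENSDARG00000090783, had 10.3, 22.9 and 11.05 CPM in the runx1 null pools and 10.9, 42.7 and 17.1 CPM in the wild type pools. Runx1 null pool 2 and wild type pool 2 were each the highest of their genotype. Its fitted fold was 0.627, with a 95% interval of 0.242 to 1.63 (edgeR adjusted p 0.811).

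MFAP4 ENSDARG00000038683 was the most even of the 5 tested, between 8.74 and 12.2 CPM in runx1 null and between 8.998 and 16.1 CPM in wild type pools, with a fitted fold of 0.956. ENSDARG00000088745 lay between 4.43 and 5.78 CPM in runx1 null and between 2.43 and 10.99 CPM in wild type pools. ENSDARG00000089667 was at 3.05 CPM or less in every library, with a fitted fold of 0.593. The groups overlapped in all 3. ENSDARG00000038681 failed the filter with at most 4.97 counts in a library.

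MFAP4 ENSDARG00000090557 was the 1 tested identifier whose mean was higher in runx1 null. It had 9.45, 0.744 and 6.64 CPM in the runx1 null pools and 0.241, 1.46 and 2.40 CPM in the wild type pools. Runx1 null pools 1 and 3 were above all wild type pools, and runx1 null pool 2 was below all but wild type pool 1. The fitted fold was 4.04 with a 95% interval of 0.710 to 23.0 (edgeR adjusted p 0.811). Liver markers such as tfa and apoa1b, 10 of 10 of which were tested, followed nearly the same order of pools. Their summed level was 19016, 1642 and 26689 CPM in the runx1 null pools and 53.0, 5504 and 6955 CPM in the wild type pools. Their part in the level of this identifier was not tested.

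A further 7 identifiers carried numbered mfap4 names. All were tested and 0 of 7 passed in edgeR. Their median log2 fold change was -0.34, with 6 of 7 lower in runx1 null, and without wild type pool 1 the median was -0.15 with 3 of 7 higher. The most abundant, mfap4.6, had 122, 118 and 124 CPM in the runx1 null pools and 166, 94.05 and 119 CPM in the wild type pools, a fitted fold of 0.959. For 2 of the 7, mfap4.7 and mfap4.8, the runx1 null pools were below all wild type pools, against 6.24% of all genes. mfap4.7 had 19.7, 10.6 and 16.6 CPM in the runx1 null pools and 29.9, 22.1 and 21.1 CPM in the wild type pools (edgeR adjusted p 0.811). These 3 were named after their values were seen.

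**Figure D2:**
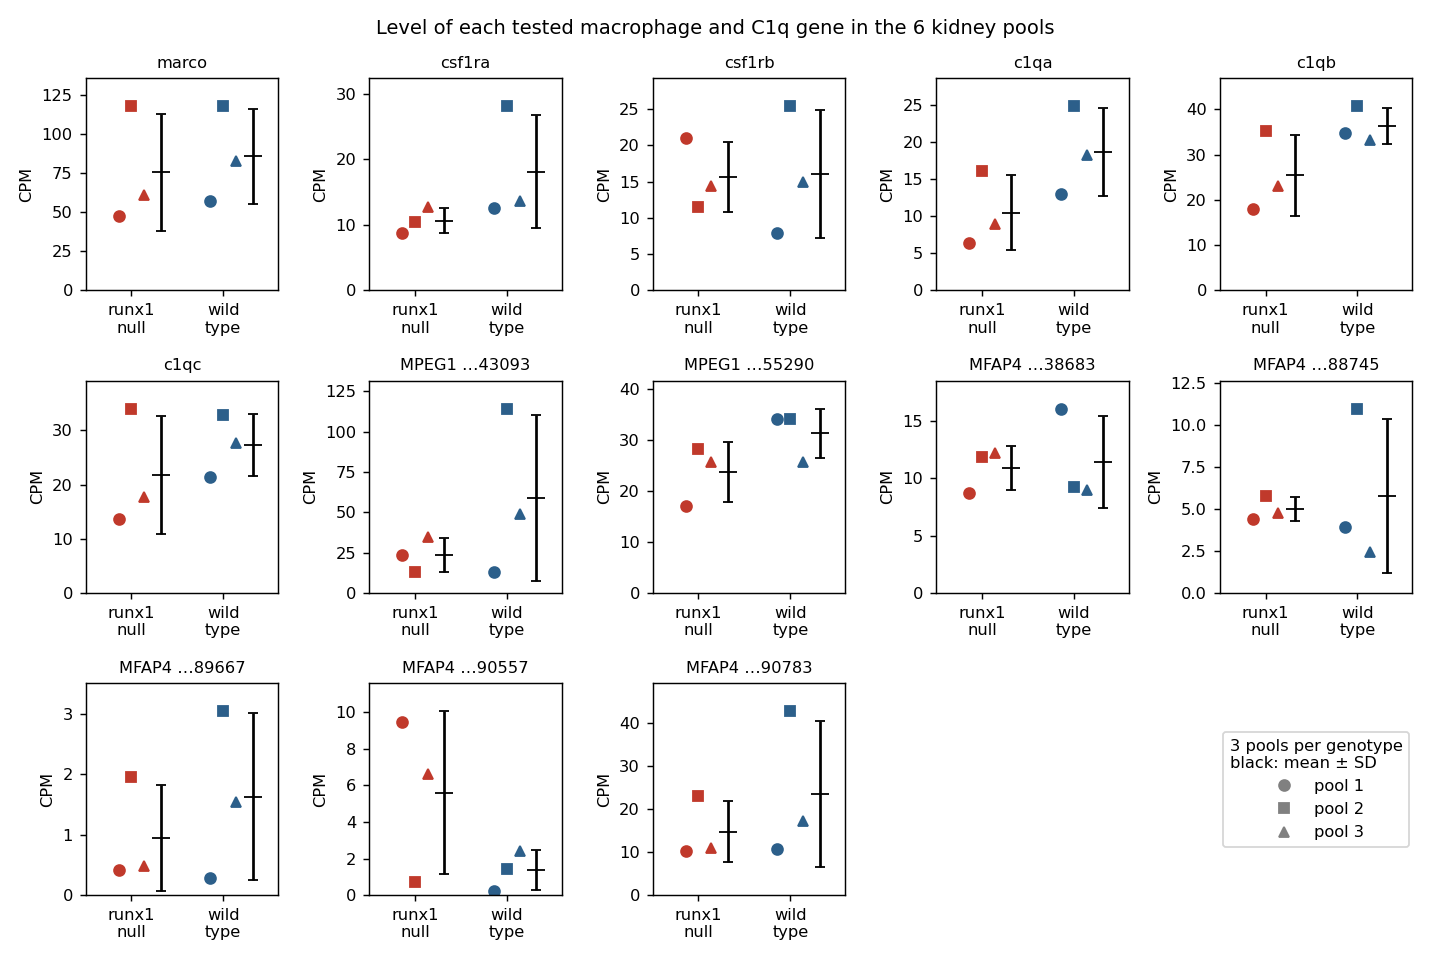
CPM (linear axis from 0) of each tested identifier in the 3 runx1 null pools (red, left) and the 3 wild type pools (blue, right), with mean and SD in black. The genotypes overlap in every panel, and wild type pool 2 (square) is at or near the top for most genes.

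The 3 C1q genes lie next to one another in the RefSeq list, with 0 other genes between them, and all their counts were whole numbers. Each had a lower mean in runx1 null, in the order c1qa, c1qb, c1qc from the lower to the higher fitted fold. c1qa had 6.40, 16.1 and 8.97 CPM in the runx1 null pools and 12.97, 24.9 and 18.3 CPM in the wild type pools. Runx1 null pools 1 and 3 were below all wild type pools, and runx1 null pool 2 lay between wild type pools 1 and 3. c1qa averaged 10.5 ± 5.04 CPM in runx1 null and 18.7 ± 5.96 CPM in wild type (SD, n = 3 each), a fitted fold of 0.562 with a 95% interval of 0.278 to 1.14 (log2 fold change -0.83, SE 0.43, edgeR adjusted p 0.811).

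c1qb had 17.9, 35.3 and 23.2 CPM in the runx1 null pools and 34.8, 40.7 and 33.3 CPM in the wild type pools. The same 2 runx1 null pools were below all wild type pools. Its fitted fold was 0.702 with a 95% interval of 0.425 to 1.16 (edgeR adjusted p 0.811). c1qc had 13.6, 34.03 and 17.6 CPM in the runx1 null pools and 21.4, 32.9 and 27.8 CPM in the wild type pools. Here runx1 null pool 2 was the highest of all 6 while the other runx1 null pools were the lowest. Its fitted fold was 0.796 with a 95% interval of 0.416 to 1.52 (edgeR adjusted p 0.835). When runx1 null pool 2 was left out, the log2 fold changes of c1qa, c1qb and c1qc were -1.32, -0.85 and -0.84. With each library left out in turn, the log2 fold change ran from -1.32 to -0.57 for c1qa and from -0.85 to -0.31 for c1qb. For c1qc it ran from -0.84 to -0.08.

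Ratios within the C1q genes need neither library scaling nor gene length to be compared between pools. The count of c1qc over that of c1qa was 2.12, 2.11 and 1.97 in the runx1 null pools and 1.65, 1.32 and 1.52 in the wild type pools. The groups did not overlap and the runx1 null pools were close together. On the log2 scale the ratio averaged 1.04 ± 0.06 in runx1 null and 0.58 ± 0.16 in wild type (SD, n = 3 each), a difference of 0.47. The exact two-sided permutation p was 0.1, the smallest the design allows, and 0.2 adjusted over the 4 ratios.

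c1qb over c1qa was 2.79, 2.19 and 2.58 in the runx1 null pools and 2.68, 1.64 and 1.82 in the wild type pools. These overlapped through wild type pool 1 (exact permutation p 0.3, adjusted 0.4). c1qc over c1qb was 0.759, 0.965 and 0.762 in the runx1 null pools and 0.616, 0.808 and 0.835 in the wild type pools (exact permutation p 0.6, adjusted 0.6). Of the 3 C1q ratios, the genotypes were apart in 1, that of c1qc to c1qa. The share of other gene pairs that are apart in this way was not computed. Neither this count nor the separation of the csf1rb to csf1ra ratio therefore has a reference value beside it.

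**Figure D3:**
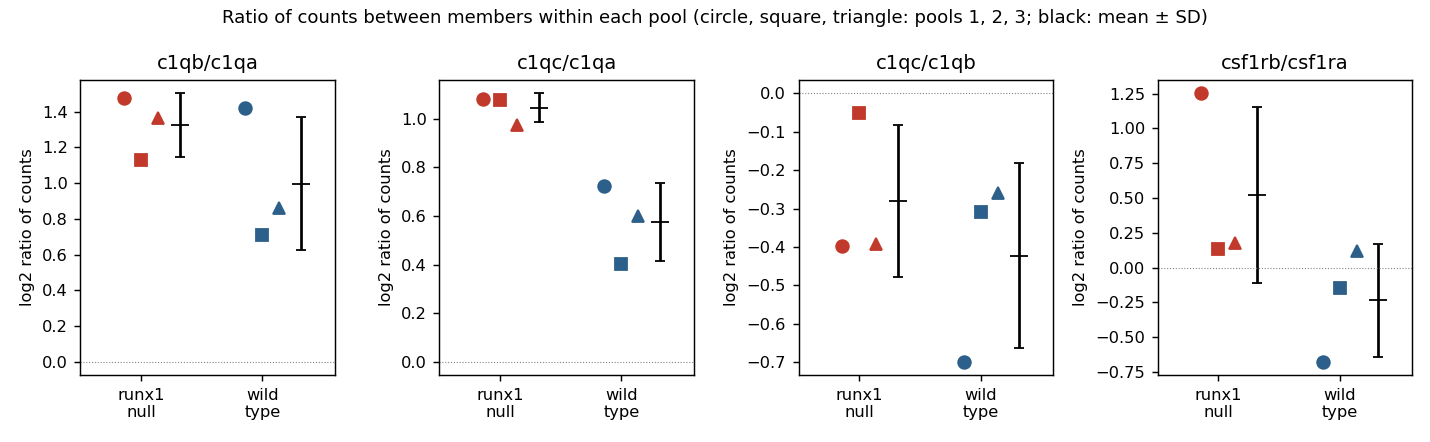
Log2 ratio of counts between members within each pool, runx1 null (red, left) and wild type (blue, right), with mean and SD in black; the 4 panels have separate axes. The genotypes are apart for c1qc/c1qa and csf1rb/csf1ra and overlap for the other ratios.

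Across the 6 libraries the highest and lowest values of many members fell in the same pools. Wild type pool 2 was the highest library for 10 of the 13 tested identifiers, and runx1 null pool 1 was the lowest for 8. The shares of all genes tested with these extremes were not computed, so these counts have no reference value. Relative to each gene's own mean over the 6 pools, the median log2 deviation of the 13 was -0.64, 0.25 and -0.07 in runx1 null pools 1, 2 and 3 and -0.30, 0.78 and 0.12 in wild type pools 1, 2 and 3. The general leukocyte list gave -0.52, -0.41 and -0.28 in the runx1 null pools and 0.21, 0.82 and 0.20 in the wild type pools on the same scale. The leukocyte values were all below 0 in runx1 null and all above 0 in wild type. Those of the macrophage and C1q genes were mixed, with runx1 null pool 2 above 0 and wild type pool 1 below it.

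**Figure D4:**
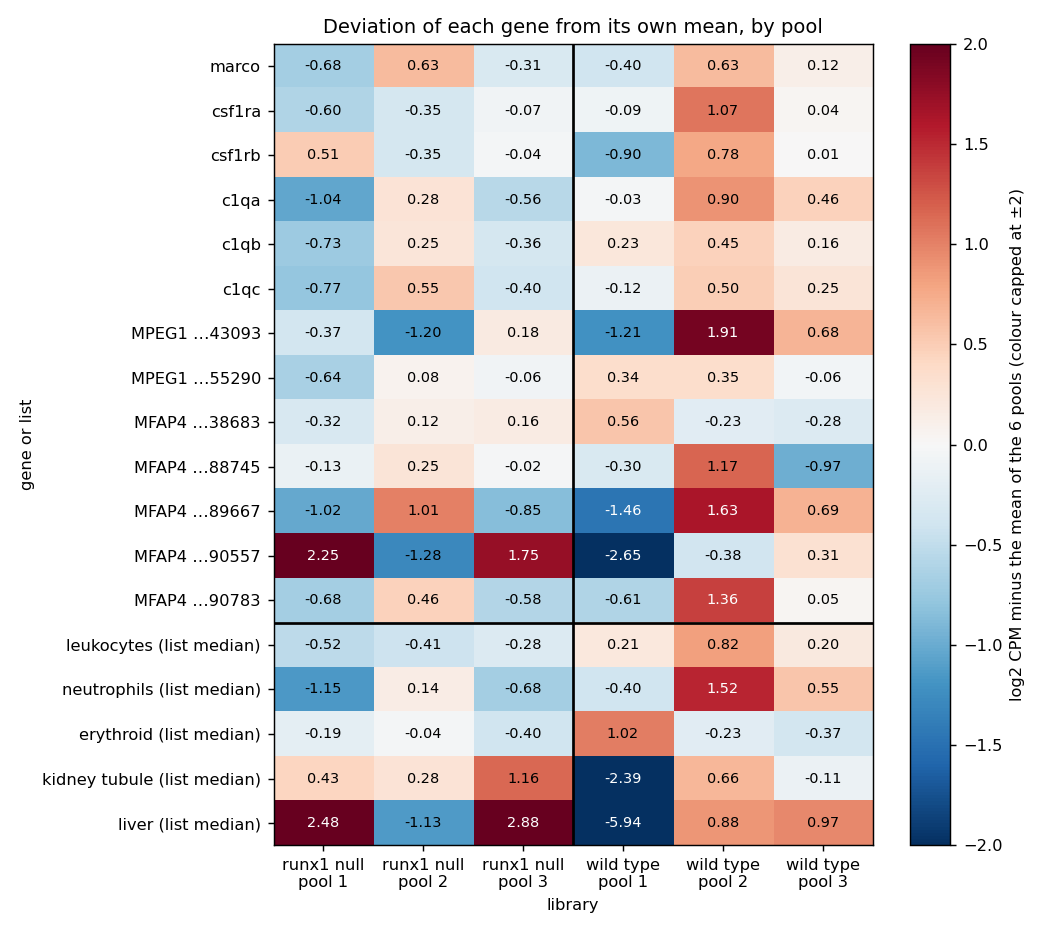
Log2 CPM minus the mean of the 6 pools for the 13 tested identifiers (top) and, below the line, the medians of 5 marker lists, with runx1 null pools left of wild type pools. Wild type pool 2 is high for most genes, runx1 null pool 1 is low, and the liver and kidney tubule lists are far below their mean in wild type pool 1.

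The genes nearest in profile were found by the root mean square distance of centred log2 CPM over the 6 libraries, among 13772 other genes. The nearest non-member to c1qc was mrc1b, named for the macrophage mannose receptor, at a distance of 0.131, and marco was the gene ranked 2 in distance at 0.153. The nearest to marco was sh3kbp1, an adaptor of receptor endocytosis in mammals, with c1qc at rank 5. c1qa had SOCS7 as its nearest gene and c1qc as the nearest member, at rank 24. c1qb was nearest to paox1, and its closest member, MPEG1 ENSDARG00000055290, stood at rank 15. csf1ra was nearest to abi3a, with no member closer than rank 332, and csf1rb to phactr2, with no member closer than rank 2998.

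MPEG1 ENSDARG00000055290 itself was nearest to nfkb1, and MPEG1 ENSDARG00000043093 to ENSDARG00000103590, which has no symbol in the name table. Among MFAP4 identifiers, ENSDARG00000090783 was nearest to myhb and had marco as its nearest member at rank 22. The nearest genes of ENSDARG00000038683, ENSDARG00000088745 and ENSDARG00000090557 were MOV10, SLC39A14 and CLDN2. By rank, marco and c1qc were the members closest to each other. csf1rb and MFAP4 ENSDARG00000038683 (rank 3253) had the most genes closer than any member. These distances and ranks also depend on how much each gene varied between pools, and no reference value for them was computed. MFAP4 ENSDARG00000089667 was too low to be compared in this way.

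The CSF1 receptor's ligands, regulators and signalling partners were read as a list. Of 15 names 14 matched and 13 were tested, of which 0 passed in edgeR and 10 were lower in runx1 null, with a median log2 fold change of -0.73. At an unadjusted edgeR p-value under 0.05 there were 5 of 13, all lower, against 2.66% of all genes in that direction. The same 5 had every runx1 null pool below every wild type pool, against 6.24% of all genes. The number at an unadjusted p-value under 0.05 ran from 2 to 7 when 1 library at a time was left out. It was 2 without wild type pool 2, without runx1 null pool 1 and without runx1 null pool 3. The medians of these fits were -0.37, -0.55 and -0.81.

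These 5 were cbl, irf8, spi1a, hck and spi1b. cbl, a ubiquitin ligase that turns over activated receptors, had 96.9, 95.5 and 81.8 CPM in runx1 null and 193, 172 and 141 CPM in wild type pools (log2 fold change -0.88, edgeR adjusted p 0.811). irf8, a transcription factor that zebrafish macrophages require, had 4.49, 8.66 and 7.38 CPM in runx1 null and 12.0, 17.0 and 15.6 CPM in wild type pools (log2 fold change -1.12, edgeR adjusted p 0.811). The PU.1 genes spi1a and spi1b, whose products switch on csf1r in mammals, had log2 fold changes of -1.26 and -1.06, and the kinase gene hck one of -1.01.

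The ligand genes were not among them. csf1a was at 1.08 CPM or less in every library, with every runx1 null pool above the wild type pools and a log2 fold change of 0.42 (edgeR adjusted p 0.816). The same order held for 6.24% of all genes, and csf1a had 12 to 28 counts per library. csf1b and il34 had log2 fold changes of 0.59 and -0.46 (edgeR adjusted p 0.811 each). tyrobp, an adaptor of myeloid receptors, failed the filter with 1 count in 1 library. The general leukocyte and neutrophil lists, given below, had median log2 fold changes of -0.86 and -1.27. The part of those cells in the values of the CSF1 receptor pathway list was not tested.

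Other macrophage genes did not show 1 direction. Of 24 names 21 matched and 20 were tested, 11 lower and 9 higher in runx1 null, with a median log2 fold change of -0.03 and 0 passing in edgeR. cd68, a lysosomal glycoprotein of phagocytes, was present in every pool, at 143 to 149 CPM in runx1 null and 115 to 201 CPM in wild type pools. fcer1gl and cxcr3.2 were the 2 of 20 with an unadjusted edgeR p-value under 0.05, both lower in runx1 null, against 2.66% of all genes in that direction. fcer1gl, named after an Fc receptor gamma chain, had 8.50, 14.6 and 10.8 CPM in runx1 null and 26.3, 39.0 and 22.2 CPM in wild type pools. cxcr3.2, a chemokine receptor that guides zebrafish macrophages, had 1.08, 2.94 and 3.41 CPM in runx1 null and 7.04, 14.2 and 10.1 CPM in wild type pools. Its log2 fold change was -2.07 (edgeR adjusted p 0.811, DESeq2 adjusted p 0.0335). In DESeq2 cxcr3.2 was the 1 of the 20 that passed, against 0.366% of all genes lower in that test.

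apoeb and lygl1 were next in that list by p-value. apoeb, an apolipoprotein gene, had 84.8, 1068 and 577 CPM in runx1 null and 288, 76.4 and 117 CPM in wild type pools, with runx1 null pool 1 among the low ones. lygl1, a lysozyme gene, had a log2 fold change of -0.85 (edgeR adjusted p 0.811).

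Among other phagocytic receptors 11 of 12 matched genes were tested, 5 lower and 6 higher, with a median log2 fold change of 0.29 and of -0.07 without wild type pool 1. itgb2, the beta chain of leukocyte integrins, had 32.2, 43.5 and 30.6 CPM in runx1 null and 44.9, 115 and 70.9 CPM in wild type pools (log2 fold change -1.12, edgeR adjusted p 0.811). It was the 1 of the 11 tested genes without overlap, where 12.5% of all genes had none. scarb1, cd36 and colec12 had log2 fold changes of -1.63, 3.39 and 0.73. For scarb1 the levels were 8.38, 9.30 and 19.4 CPM in runx1 null and 16.9, 15.2 and 82.7 CPM in wild type pools. Wild type pool 3 thus stood far above the rest, and runx1 null pool 3 was above wild type pools 1 and 2. cd36, a fatty acid and scavenger receptor, owed its value to runx1 null pool 3, at 69.0 CPM against at most 4.11 CPM elsewhere. mrc1b, the gene nearest to c1qc, had 46.6, 127 and 75.7 CPM in runx1 null and 83.5, 121 and 89.3 CPM in wild type pools.

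Other complement genes were read as a list of C1 proteases, the related lectin pathway proteases, C2, C3 and C4 genes, the C1 inhibitor and C1q-binding proteins. Of 14 names 13 matched and were tested, 11 higher and 2 lower in runx1 null, against 47.9% of all genes higher, with a median log2 fold change of 0.63 and 0 passing in edgeR. Without wild type pool 1 the median was 0.08 with 10 of 13 higher, and in limma voom with library weights it was 0.077 with 9 of 13 higher. c4b, a C4 gene, had 170, 73.8 and 179 CPM in runx1 null and 10.8, 115 and 49.3 CPM in wild type pools. serping1, the C1 inhibitor gene, had 138, 9.47 and 137 CPM in runx1 null and 0.820, 51.0 and 38.8 CPM in wild type pools. The log2 fold changes were 1.27 for c4b, 1.65 for serping1, 0.92 for c4 and 0.47 for calr3b, each overlapping between genotypes. Liver markers were lowest in wild type pool 1 and next lowest in runx1 null pool 2, the same pools in which serping1 was lowest, and their part in these values was not tested.

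**Figure D5:**
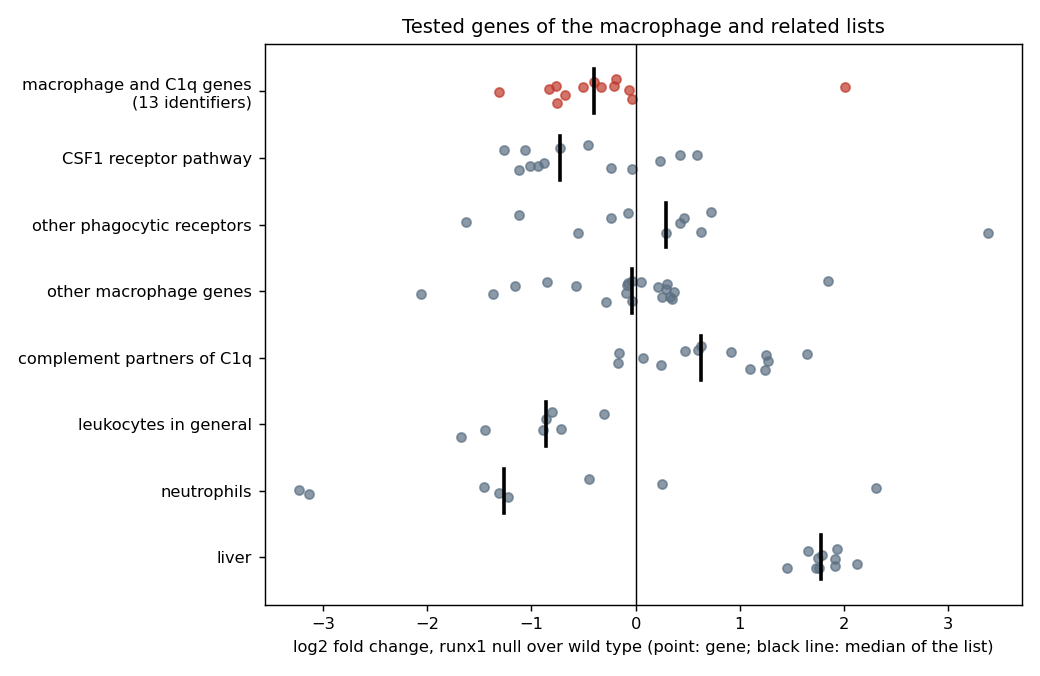
Log2 fold change of runx1 null over wild type for each tested gene (points) of 8 lists, with the median as a black line; position within a row is jittered. The CSF1 receptor pathway, leukocyte and neutrophil medians lie further below 0 than that of the macrophage and C1q genes, and the complement and liver medians lie above 0.

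Markers of other cells were read beside these genes. All 7 tested genes of the general leukocyte list were lower in runx1 null, with a median log2 fold change of -0.86 and a summed level of 185 to 237 CPM in runx1 null and 361 to 523 CPM in wild type pools. The 2 highest, arhgdig and laptm5, overlapped between genotypes, with log2 fold changes of -0.30 and -0.80. In 4 of the 7 the runx1 null pools were below all wild type pools, against 6.24% of all genes. These, named after their values were seen, were lcp1, coro1a, wasb and ptprc, with log2 fold changes of -1.68, -1.45, -0.89 and -0.86. None passed in edgeR. In DESeq2 1 of the 7 passed, lcp1, with an adjusted p-value of 0.0283, against 0.366% of all genes lower in that test. Of 8 tested neutrophil genes 6 were lower, with a median of -1.27 and a summed level of 277 to 607 CPM in runx1 null and 405 to 1817 CPM in wild type pools, and without wild type pool 2 the median was -0.50. None passed in edgeR, and 2 of the 8 passed in DESeq2, both lower: npsn, an astacin-like protease gene, with an adjusted p-value of 3.85e-05, and the lysozyme gene lyz with 0.0022. lyz had 61.4, 31.3 and 96.3 CPM in runx1 null and 163, 953 and 550 CPM in wild type pools. The other abundant gene of the list, srgn, had a log2 fold change of -0.45. The 2 higher genes, mmp9 and nccrp1, had log2 fold changes of 2.31 and 0.25. mmp9 was at 229 CPM in runx1 null pool 2, the pool with the sum of 607 CPM, and at 28.2 CPM or less elsewhere. Endothelial genes such as kdrl and cdh5 were higher for 7 of 8, with a median of 0.37 and 0 passing in edgeR. Without wild type pool 1 they were higher for 3 of 8, with a median of -0.03. Whether the macrophage and C1q genes differed less between genotypes than these lists was not tested, and the part of other cell types in their levels was not tested.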

How the data were processed

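RNA from 6 pools was sequenced from paired-end TruSeq libraries, per the labels' protocols. The authors deposited 1 table of expected counts per library, not scaled; of the values above 0, 12.7% to 14.9% per library were fractional. STAR, RSEM and DESeq2 and the build GRCz10 are listed in the submitters' processing notes, without their roles. The annotation and use of strand are not given in the sources used here.

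Expected counts were rounded. Low genes were removed by edgeR's filterByExpr (version 4.0.16, R 4.3.3; minimum count 10), and libraries were scaled by TMM. Genotype was the sole term of the quasi-likelihood test, and p-values were adjusted by Benjamini-Hochberg over 18864 genes at 0.05. The SE is the log2 fold change over the square root of F, and the 95% interval uses the fit's degrees of freedom. CPM are rounded counts over the TMM-scaled library size, and profiles used log2 CPM with a prior count of 2. Ratios used a prior count of 0.5. DESeq2 1.42.0 and limma 3.58.1 (voom) served as alternatives. The fitting code was run on counts simulated from these same data, as a check of the code and not of the results.

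Symbols came from a table that named 26433 of 32266 identifiers, then from unique synonyms in RefSeq's GRCz12tu gene list. No coordinates or sequences are given, and promoter motifs were not analysed here. The members and lists were chosen with earlier results of these data known. Named genes were all members, runx1, the 4 genes with the smallest p-value of each macrophage-related list, the 2 most abundant of each cell type list set beside a result and the nearest gene in profile of each member. Other genes were named outside this rule after their values were seen. They were spi1b, the CSF1 receptor ligands, tyrobp, cd68, dct, tyr, slc45a2, pnp4a, aox5, gch2, mmp9, nccrp1, mfap4.6, mfap4.7, mfap4.8, cd79a, cd79b and pax5. So were those without overlap or past the DESeq2 threshold in a marker list. Intervals on these pools cover the spread between pools of 1 study only.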

Additional observations from a re-analysis of the deposited data

How the results depend on the processing

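No member passed the threshold in any of the 15 other fits, and the smallest adjusted p-value of a member was 0.426, for c1qa in limma voom with library weights. Over all genes 0 passed, with the exception of the DESeq2 Wald test, which called 105; 987 genes had an unadjusted edgeR p-value under 0.05. The fitted direction of both tested MPEG1 identifiers, csf1ra, c1qa, c1qb, c1qc and MFAP4 ENSDARG00000090557 was the same in all 15. The log2 fold change of csf1rb was 0.065 and that of MFAP4 ENSDARG00000088745 was 0.074 with the replicate block, and MFAP4 ENSDARG00000038683 was 0.14 with voom weights; the cause was not tested. The labels give no shared fish for pools of 1 number. The correlations of deviations between them were 0.09, -0.36 and 0.46. These had no reference value beside them, so they cannot decide whether the numbers pair the pools. With the block 0 genes passed.

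Leaving out 1 library at a time, log2 fold changes ran from -0.70 to 0.11 for marco, -0.38 to 0.45 for csf1rb, and, for MFAP4, -0.21 to 0.25 (ENSDARG00000038683), -0.58 to 0.66 (ENSDARG00000088745), -1.88 to 0.050 (ENSDARG00000089667) and -1.18 to 0.076 (ENSDARG00000090783). Of 10 such changes of sign, 5 came without wild type pool 2. The median of the 13 ran from -0.79 to -0.18; that of the CSF1 receptor pathway ran from -0.81 to -0.37.

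List medians that moved by more than 1 SD between pools were those of the CSF1 receptor pathway (-0.37 without wild type pool 2) and phagocytic receptors (-0.15 with voom weights). That of pigment genes moved too (1.89 with genes averaging 50 counts or more, which left 1 gene, and 0.047 to 0.69 without 1 library). So did that of B lymphocytes (-2.45 without the filter, -2.08 with voom weights, -3.04 to -0.11 without 1 library). The B lymphocyte median rested on 2 genes in the main fit and with voom weights. It rested on 5 without the filter and on 2 to 4 without 1 library. The others that moved were thrombocytes (-0.44 with voom weights, -1.46 to -0.32 without 1 library), erythroid cells (-0.78 to 0.10) and oocytes (-5.55 to -0.057).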

Other observations

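Lymphocyte and thrombocyte markers were read in the same fit. Of 6 tested T and NK lymphocyte genes 5 were higher in runx1 null, with a median log2 fold change of 0.62 and a summed level of 12.0 to 18.1 CPM in runx1 null and 8.10 to 10.9 CPM in wild type pools. All 5 tested thrombocyte genes were lower, with a median of -1.12 and a summed level of 388 to 526 CPM in runx1 null and 582 to 1238 CPM in wild type pools. None of these passed in edgeR. The most abundant were il2rb and zap70 in the first list and gp9 and gp1bb in the other. Without wild type pool 1 the thrombocyte median was -0.32. In DESeq2 2 of the 5 thrombocyte genes passed, both lower: mpl, the thrombopoietin receptor gene, with an adjusted p-value of 4.52e-05, and the integrin gene itga2b with 0.000899, against 0.366% of all genes lower in that test. B lymphocyte genes summed to 117 CPM in runx1 null pool 3 and to at most 3.71 CPM in the other runx1 null pools, against 7.62 to 34.3 CPM in wild type pools. The immunoglobulin gene ighm alone was at 114 CPM in runx1 null pool 3, while cd37 was at 3.00 CPM there. cd79b, a part of the B cell receptor, was too low to be tested. It was counted 0, 0 and 1 times in runx1 null pools and 10, 46 and 38 times in wild type pools. cd79a and pax5, also too low, had 3, 1 and 7 and 0, 0 and 2 counts in runx1 null pools. In wild type pools they had 3, 46 and 20 and 1, 30 and 11. Without the filter 1 of the 5 matched genes was higher in runx1 null, with a median log2 fold change of -2.45. That was ighm, which in runx1 null pools 1 and 2 was below every wild type pool.

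Set against the summed level of the general leukocyte genes, a ratio chosen after the values were seen, the 6 members with 1 identifier summed to 0.620, 0.957 and 0.583 in the runx1 null pools and 0.407, 0.516 and 0.509 in the wild type pools. For 3 of these 6 the ratio was higher in every runx1 null pool. The same held for 41.8% of all genes tested, and the summed leukocyte level in the denominator was lower in every runx1 null pool than in any wild type pool.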
